A study of Drosophila melanogaster with 9 samples.

Results

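The Osiris and Tweedle genes are families of Drosophila melanogaster that are known from cuticle-forming epithelia, and they were followed here in wing imaginal discs with reduced NAT10. Members were all entries of the deposited expression table whose symbol began with Osi and a digit or with Twdl. This gave 50 of 14168 entries, 25 Osiris and 25 Tweedle genes. They were chosen by symbol alone and no measured value entered that rule, but the families were put forward with results of these data known, so the p-values below describe these libraries and are not independent evidence. Polyadenylated RNA was sequenced from wing discs of larvae in the third instar, the sheets of larval epithelium from which the adult wing and its body wall develop. Control discs carried the en-GAL4 driver alone (en-GAL4>+), the NAT10 knockdown carried en-GAL4 with UAS-NAT10-RNAi, and the double knockdown carried en-GAL4 with UAS-NAT10-RNAi and Xrp1-RNAi. NAT10 is an RNA cytidine acetyltransferase that acts on ribosomal RNA, and Xrp1 is a bZIP transcription factor of the response to impaired ribosomes. Each genotype had 3 biological replicates, and each RNA extraction used 100 discs. The study asks to what extent the response to NAT10 loss requires Xrp1. Because en-GAL4 drives expression in posterior cells, each whole disc mixes targeted and untargeted cells, and fewer cells that express a gene cannot be told apart from less RNA per cell.

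Osiris genes encode insect-specific membrane proteins that are found in the secretory and endosomal compartments of epithelial cells while these build cuticle. Most of them lie side by side in 1 run on chromosome arm 3R that coincides with a locus known for its sensitivity to gene dosage, and Osi23 is known to be required for the nanopores of olfactory bristles. Tweedle genes encode secreted structural proteins of the cuticle, and dominant mutations of TwdlD are known to shorten and widen the larva and pupa. Wing discs of late larvae make little cuticle, and the main wave of cuticle secretion by this epithelium follows pupariation under control of the steroid ecdysone.

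Libraries held between 14183856 and 19949448 estimated counts, and levels are given as normalised CPM, that is counts divided by the library size and the TMM factor. The fly NAT10 gene, l(1)G0020, had mean levels of 101.4 ± 1.36 (SD, n = 3), 62.2 ± 0.917 and 74.7 ± 2.69 in control, NAT10 knockdown and double knockdown. The Xrp1 transcript stood at 520.7 ± 8.80, 940.7 ± 14.9 and 409.2 ± 14.4 in the same order. All 10 marker genes of the wing disc epithelium passed the filter on low counts, with summed levels of 3146 to 3277 CPM in control, 2480 to 2524 in NAT10 knockdown discs and 3041 to 3084 in the double knockdown. Marker genes of other tissues moved between the genotypes as well. The 6 fat body markers summed to 13.7 to 15.6 CPM in control, 57.4 to 63.0 in NAT10 knockdown discs and 1200 to 1243 in the double knockdown. The 5 tracheal markers, of interest because tracheal branches attached to discs also line themselves with cuticle, summed to 1565 to 1592, 1464 to 1537 and 1701 to 1732, and most of each sum came from uif and vvl. Of these 5 markers, 4 were lower in the NAT10 knockdown against control (log2 -0.55 for trh, -0.51 for btl, -0.61 for dysf and -0.12 for vvl). The marker uif was not called (log2 0.01), and the median over all 5 was -0.51. All 5 were higher in the double knockdown than in the NAT10 knockdown. By the test given below, 29.6% of all genes tested were lower in the first comparison and 28.4% higher in the second. The 6 markers of sensory organ precursors summed to 139.6 to 146.1, 96.1 to 98.9 and 135.3 to 141.6, and the 8 muscle markers to 137.8 to 140.2, 99.3 to 101.1 and 116.7 to 124.3. The 7 hemocyte markers summed to 18.6 to 21.2, 9.72 to 10.4 and 10.1 to 10.6, and the 6 salivary gland markers to 0.725 to 1.11, 0.172 to 0.333 and 0.853 to 1.35. Most of the last sum came from fkh, with 0, 0 and 38 counts in the 3 genotypes. Mean levels of Sgs3 and Sgs5 were 0.420 and 0.426 CPM in control, 0.094 and 0.075 in NAT10 knockdown discs and 0.154 and 0.140 in the double knockdown. Sgs4, Sgs7 and Sgs8 had at most 4 counts in any genotype. No marker of any of these lists was at 0 counts throughout. The part of these tissues in the Osiris and Tweedle values was not tested.

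Most members were silent or nearly so. A member was taken as detected in a genotype when each of its 3 libraries held at least 3 counts, the floor used here, which corresponded to 0.150 to 0.213 normalised CPM. By this measure 8 of 50 members were detected in control, 9 in NAT10 knockdown discs and 10 in the double knockdown. The 8 detected in all genotypes were Osi2, Osi9, Osi14, Osi24, TwdlE, TwdlT, Twdlbeta and TwdlM. Osi15 joined them in both knockdowns, and TwdlX in the double knockdown. With a minimum of 10 counts in each library, 6, 7 and 8 members were detected. In all, 24 members (48.0%) had no counts in any of the 9 libraries, against 16.1% of all entries in the table. A further 17 members had counts but did not pass the filter on low counts, and 9 members (18.0%) passed it, against 59.9% of all entries.

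The genotypes were compared in pairs with the quasi-likelihood test of edgeR, p-values were adjusted by Benjamini-Hochberg over the 8487 genes tested, and those under 0.05 after adjustment were called. In the NAT10 knockdown against control, 5 tested members were higher (Osi2, Osi14, Osi15, Twdlbeta and TwdlM), 3 were lower (Osi24, TwdlE and TwdlT) and Osi9 was not called. Of all genes tested, 62.1% were called in this comparison, 32.5% as higher and 29.6% as lower. In the double knockdown against control, the same 5 members were higher, TwdlE was lower and Osi9, Osi24 and TwdlT were not called, where 31.3% of all genes were called, 15.7% as higher and 15.5% as lower. Between the knockdowns, 4 members were higher (Osi9, Osi24, TwdlE and TwdlT), 2 were lower in the double knockdown (Osi14 and Osi15) and 3 were not called, where 56.7% of all genes were called, 28.4% as higher and 28.3% as lower. Both knockdowns were compared with the same 3 control libraries, so their values are set side by side and not correlated. Osi15 passed the filter through its NAT10 knockdown libraries alone, so it had to differ from control and from the double knockdown. TwdlM passed through knockdown libraries alone, so it had to differ from control. The counts above therefore say nothing about the families as a whole. No overlap between libraries of the compared genotypes was found for 65.6%, 42.4% and 63% of all genes tested in the 3 comparisons, which is the background for the statements on overlap below.

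**Figure D1:**
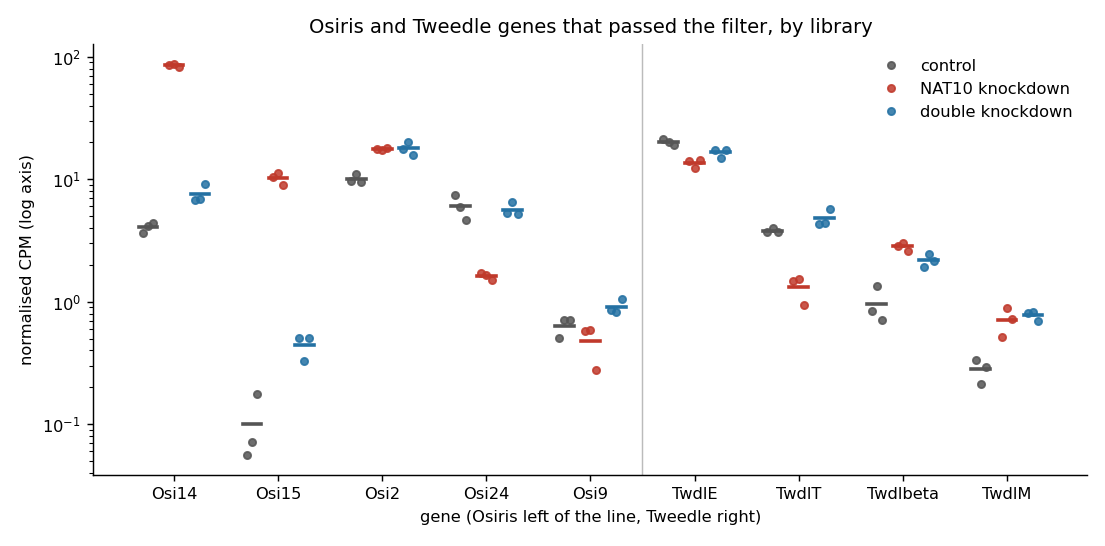
Normalised CPM (log axis) of the 9 members that passed the filter, with each point a library and each line the mean of 3 libraries of a genotype. Osi14 and Osi15 are higher in the NAT10 knockdown, with means of 85.3 and 10.2 CPM, than in the other genotypes. Osi24, TwdlT and TwdlE are each lowest in the NAT10 knockdown, as is the mean of Osi9, which overlaps control there. Osi2, Twdlbeta and TwdlM are lower in control than in either knockdown.

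Osi14 had the highest level per length of all members in the NAT10 knockdown. It is a membrane protein gene of the family (FBgn0040279, 3R, 6299128 to 6300738, plus strand, in the BDGP6.54 annotation, as for all positions here). Its level was 3.62, 4.19 and 4.39 CPM in the control libraries, 85.2, 88.1 and 82.5 in the NAT10 knockdown libraries and 6.73, 6.92 and 9.12 in the double knockdown libraries. None of the 3 genotypes overlapped another, and the libraries of the double knockdown lay just above control. Osi14 rose 21.0-fold in the NAT10 knockdown (log2 4.39 ± 0.094 SE, adjusted p = 1.25e-23) and 1.87-fold in the double knockdown (log2 0.91 ± 0.127, adjusted p = 3.18e-06). Between the knockdowns it was 11.2-fold lower in the double knockdown (log2 -3.49 ± 0.081, adjusted p = 1.21e-22).

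Osi15, its neighbour (FBgn0037424, 3R, 6301804 to 6303653, plus strand), took the same order of genotypes from a lower start. The control libraries held 1, 1 and 3 counts, the NAT10 knockdown libraries 181, 192 and 162, and the double knockdown libraries 10, 6 and 10. These counts came to 0.101 ± 0.065 CPM, 10.2 ± 1.16 and 0.444 ± 0.099. Control was thus at or under the floor in every library, while the NAT10 knockdown stood far above it. The ratio of summed counts between the NAT10 knockdown and control was 100.2, with a 95% counting interval of 42.65 to 309.7, and the fitted change was log2 6.55 ± 0.305 (adjusted p = 3.58e-16). For the double knockdown against control the ratio was 4.396, with an interval of 1.66 to 14.7, and the fitted change was log2 2.06 ± 0.596 (adjusted p = 0.00903). That call was lost without the first control library (adjusted p = 0.0504). From the NAT10 knockdown to the double knockdown Osi15 fell by 4.49 ± 0.222 on the log2 scale (edgeR adjusted p = 1.7e-15). Only NAT10 knockdown libraries of Osi15 were over the filter minimum, so this fall and the rise over control are descriptions only.

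Osi2 (FBgn0037410, 3R, 6209373 to 6213493, plus strand) had the highest level per length of the Osiris genes in control and rose to a like extent in both knockdowns. Its level was 9.59, 11.0 and 9.49 CPM in control, 17.7, 17.4 and 17.9 in NAT10 knockdown discs and 17.6, 20.3 and 15.7 in the double knockdown. Every knockdown library lay above every control library, and the knockdowns overlapped each other. Against control the log2 change with NAT10 RNAi alone was 0.83 ± 0.0997 (adjusted p = 6.49e-08), and with both RNAi constructs it was 0.83 ± 0.099 (adjusted p = 2.07e-07). The knockdowns differed by 0.01 ± 0.090 (adjusted p = 0.939).

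Osi24 (FBgn0037409, 3R, 6198811 to 6207678, plus strand), the gene next to Osi2, was low in the NAT10 knockdown. Its level was 7.47, 5.89 and 4.69 CPM in control, 1.72, 1.65 and 1.50 in NAT10 knockdown discs and 5.32, 6.48 and 5.16 in the double knockdown. The NAT10 knockdown lay below both other genotypes, which overlapped. Osi24 fell 3.71-fold in the NAT10 knockdown (log2 -1.89 ± 0.204, adjusted p = 8.76e-09), while the double knockdown stood at log2 -0.10 ± 0.161 against control (adjusted p = 0.701). In the double knockdown it was 3.47-fold higher than in the NAT10 knockdown (log2 1.79 ± 0.202, adjusted p = 2.37e-08).

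Osi9 (FBgn0037416, 3R, 6260211 to 6262105, plus strand) stayed under 1.1 CPM everywhere. Its level was 0.502, 0.710 and 0.703 in control, 0.572, 0.589 and 0.278 in NAT10 knockdown discs and 0.853, 0.824 and 1.053 in the double knockdown. The double knockdown lay above the other genotypes, and these overlapped. Against control the log2 change with NAT10 RNAi alone was -0.40 ± 0.440 (adjusted p = 0.443), and with both RNAi constructs it was 0.52 ± 0.379 (adjusted p = 0.32). The difference between the knockdowns was 0.93 ± 0.395 with an adjusted p of 0.0488, and this call was lost without any single library (adjusted p between 0.0503 and 0.204) and with DESeq2 (adjusted p = 0.108).

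**Figure D2:**
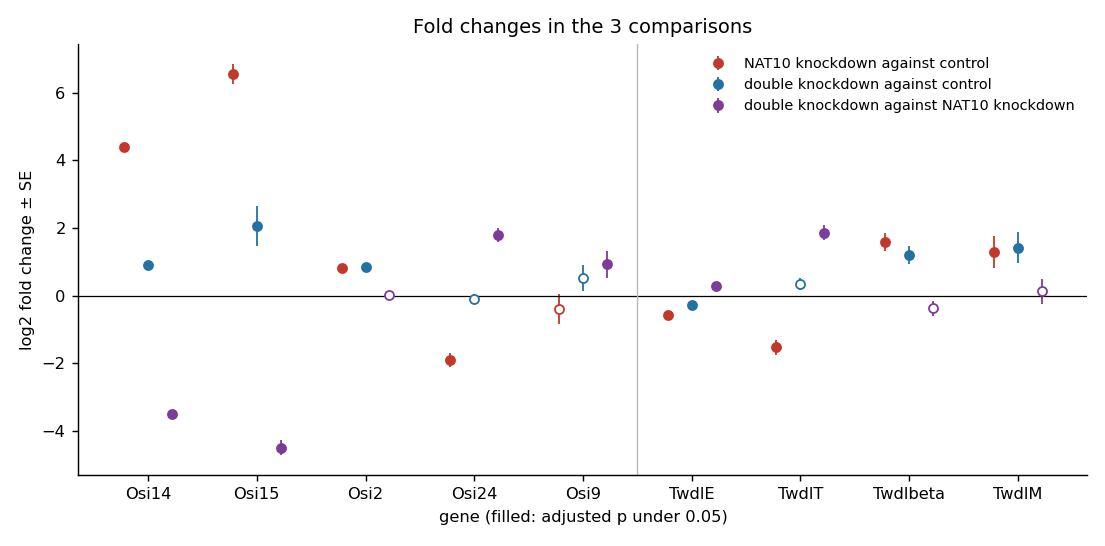
Log2 fold changes with SE of the 9 tested members in the 3 comparisons from the edgeR fit, with filled points at an adjusted p under 0.05. Osi14 and Osi15 have large positive changes in the NAT10 knockdown (4.39 and 6.55) and negative ones between the knockdowns (-3.49 and -4.49), and Osi24 and TwdlT have the opposite signs in these comparisons.

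TwdlE (FBgn0031957, 2L, 7857957 to 7860839, minus strand) had the highest level per length of the Tweedle genes in every genotype. Its level was 21.4, 20.2 and 19.0 CPM in control, 14.1, 12.4 and 14.4 in NAT10 knockdown discs and 17.5, 15.0 and 17.2 in the double knockdown. Libraries of different genotypes did not overlap, with the double knockdown between the others. NAT10 knockdown discs had TwdlE lower by a log2 change of -0.56 ± 0.089 (adjusted p = 4.51e-06). The change of -0.28 ± 0.086 in double knockdown discs also passed (adjusted p = 0.0123), a call lost without the first control library (adjusted p = 0.0628) or the second double knockdown library (adjusted p = 0.0797). Between the knockdowns it was higher in the double knockdown by 0.28 ± 0.089 (adjusted p = 0.00915). These values are uncertain, because 71.9% of its exon bases are shared with lectin-28C on the opposite strand and the library kit is not stated to mark strand. The lectin-28C entry itself stood at 1.42 ± 0.622, 0.931 ± 0.215 and 1.86 ± 0.713 CPM.

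TwdlT (FBgn0029170, 3R, 27049220 to 27051004, plus strand) had its lowest level in the NAT10 knockdown. Its level was 3.74, 3.97 and 3.69 CPM in control, 1.49, 1.53 and 0.944 in NAT10 knockdown discs and 4.32, 4.39 and 5.72 in the double knockdown. All NAT10 knockdown libraries lay below control, and all double knockdown libraries lay above it. TwdlT fell 2.87-fold in the NAT10 knockdown (log2 -1.52 ± 0.224, adjusted p = 1.67e-06), while the double knockdown stood at log2 0.34 ± 0.175 against control (adjusted p = 0.143). In the double knockdown it was 3.65-fold higher than in the NAT10 knockdown (log2 1.87 ± 0.211, adjusted p = 2.56e-08).

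Twdlbeta (FBgn0033658, 2R, 11862537 to 11863252, minus strand), a gene with 1 exon, rose in both knockdowns. Its level was 0.836, 1.35 and 0.703 CPM in control, 2.86, 3.00 and 2.61 in NAT10 knockdown discs and 1.91, 2.47 and 2.16 in the double knockdown. The libraries did not overlap, and the double knockdown lay between the others. Against control the log2 change with NAT10 RNAi alone was 1.58 ± 0.269 (adjusted p = 1.35e-05), and with both RNAi constructs it was 1.20 ± 0.277 (adjusted p = 0.00136), and the difference between the knockdowns, -0.38 ± 0.222, did not pass (adjusted p = 0.152).

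TwdlM (FBgn0039434, 3R, 26619118 to 26620224, plus strand) was under 1 CPM in every library. Its level was 0.334, 0.213 and 0.293 in control, 0.515, 0.884 and 0.722 in NAT10 knockdown discs and 0.803, 0.824 and 0.702 in the double knockdown. Control lay below both knockdowns, which overlapped. Against control the log2 change with NAT10 RNAi alone was 1.29 ± 0.474 (adjusted p = 0.0209), and with both RNAi constructs it was 1.42 ± 0.458 (adjusted p = 0.0186). DESeq2 lost both calls (adjusted p = 0.0505 and 0.051). The first call was also lost without the second or the third NAT10 knockdown library or the second control library (adjusted p = 0.0891, 0.0511 and 0.0639), and the second without the second double knockdown library or the second or the third control library (adjusted p = 0.0502, 0.0623 and 0.0519). The knockdowns differed by 0.13 ± 0.370 (adjusted p = 0.78).

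Per length, as FPKM from the authors' deposited columns, the order of the tested members changed between genotypes. In control TwdlE led at 14.9 ± 0.863 FPKM (SD, n = 3), followed by Osi2 at 6.84 ± 0.532 and Osi14 at 3.70 ± 0.374. TwdlT at 2.35 ± 0.098 was not separated from Osi24 at 2.27 ± 0.519, nor Osi24 from Twdlbeta at 1.33 ± 0.474, and Osi9, TwdlM and Osi15 followed at 0.465 ± 0.088, 0.270 ± 0.059 and 0.081 ± 0.053. In the NAT10 knockdown Osi14 moved to the top at 78.1 ± 2.29 FPKM, ahead of Osi2 at 12.3 ± 0.247, TwdlE at 10.1 ± 0.815, Osi15 at 8.29 ± 0.916 and Twdlbeta at 3.94 ± 0.265. TwdlT, TwdlM and Osi24 overlapped in turn at 0.821 ± 0.201, 0.686 ± 0.179 and 0.616 ± 0.040, and Osi9 was lowest at 0.352 ± 0.128. In the double knockdown Osi2 at 12.5 ± 1.71 and TwdlE at 12.4 ± 0.989 overlapped at the top, and next was Osi14 at 7.01 ± 1.17. Twdlbeta at 3.07 ± 0.401 overlapped TwdlT at 3.02 ± 0.469, Osi24 followed at 2.17 ± 0.286, TwdlM at 0.760 ± 0.069 overlapped Osi9 at 0.674 ± 0.087, and Osi15 was lowest at 0.364 ± 0.080.

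Summed over the family, Osiris transcripts came to 21.5, 21.9 and 19.5 CPM in control, 116.0, 119.9 and 111.9 in NAT10 knockdown discs and 31.2, 34.9 and 31.7 in the double knockdown. The NAT10 knockdown stood several-fold above the others, and Osi14 made up most of its sum. By counts, with no correction for gene length, Osi14 took 19.5 ± 2.84% of Osiris counts in control, 73.6 ± 0.173% in NAT10 knockdown discs and 23.4 ± 4.72% in the double knockdown, and Osi15 took 8.80 ± 0.704% in the NAT10 knockdown. Without Osi14 and Osi15 the Osiris sums were 16.8 ± 1.59, 20.4 ± 0.089 and 24.6 ± 2.81 CPM, so that the double knockdown had the highest mean. In those sums Osi2 was the main source, with 47.9 ± 2.90%, 15.3 ± 0.722% and 54.6 ± 4.58% of all Osiris counts. The Tweedle family summed to 26.9, 26.5 and 24.0 CPM in control, 19.4, 18.8 and 19.2 in NAT10 knockdown discs and 25.2, 23.6 and 26.8 in the double knockdown. TwdlE held 78.3 ± 1.87%, 71.3 ± 4.63% and 65.7 ± 3.13% of Tweedle counts, and without it the sums were 5.60 ± 0.673, 5.49 ± 0.805 and 8.63 ± 0.897 CPM. No test was made on these sums.

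Most genes next to the tested Osiris members had few or no counts. Of the 25 Osiris genes, 22 formed a run of 167.9 kb on 3R (6173549 to 6341424). Of these, 5 passed the filter and 11 had no counts. Osi14 and Osi15 are separated by 1065 bases and lie on the same strand. The next Osiris genes on either side are Osi13, with 2 counts in all, 5638 bases before Osi14, and Osi16, with 0 counts, 1593 bases after Osi15. The protein-coding gene CG46396 lies between Osi15 and Osi16 and had 0 counts. Osi24 and Osi2 are separated by 1694 bases on the same strand and moved in opposite directions in the NAT10 knockdown. The annotation places 6 other protein-coding genes inside the run, beside 6 transposable element copies and 1 pseudogene. All 6 protein-coding genes were in the table and 0 passed the filter. Of them, CG15597 had 4, 3 and 5 counts per genotype, CG15594 and CG46026 had 3 counts each in the NAT10 knockdown, NPFR had 2 counts in the double knockdown, and CG46396 and CG31560 had none. Osi21 on 2L and Osi22 and Osi23 elsewhere on 3R lie outside the run, and none of these passed the filter.

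**Figure D3:**
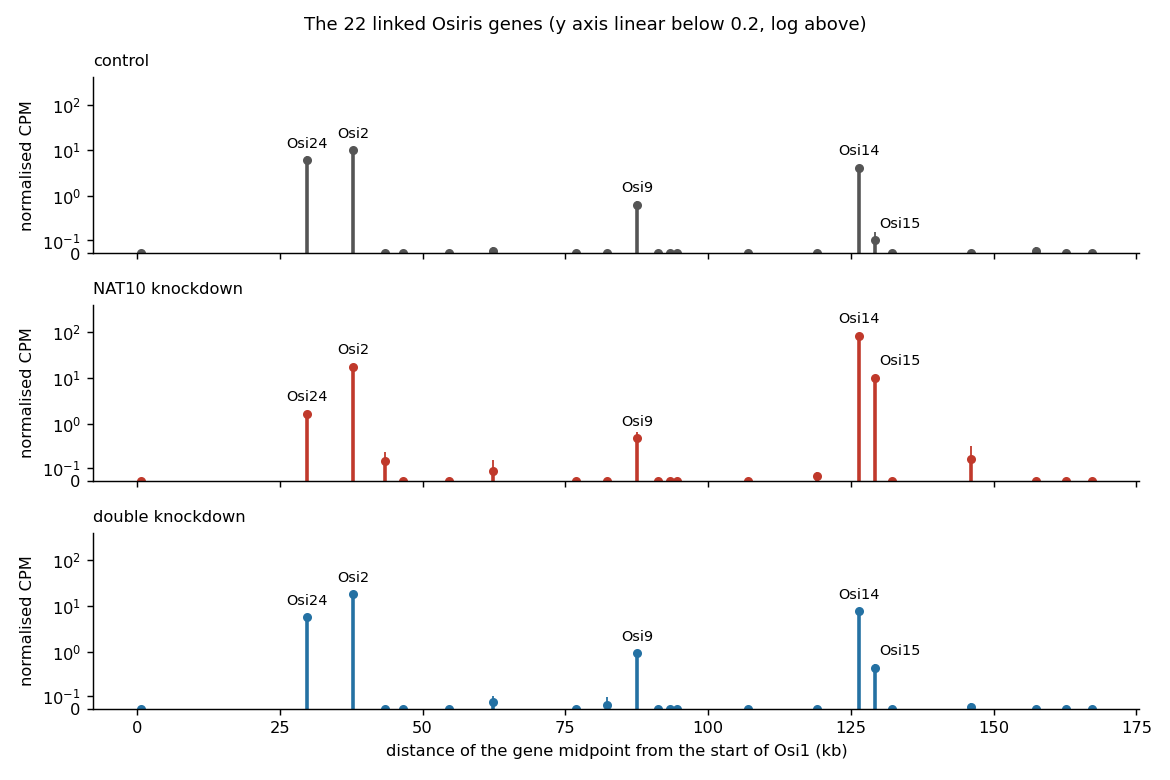
Mean normalised CPM with SD (n = 3) of the 22 linked Osiris genes along the run, by distance of the gene's midpoint from the start of Osi1 in kb, with 1 panel for each genotype and a y axis that is linear below 0.2 and logarithmic above. The 5 labelled genes passed the filter, and Osi14 rises from 4.07 CPM in control to 85.3 in the NAT10 knockdown, while Osi13 before it and Osi16 after Osi15 stay at or near 0.

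The Tweedle genes are more dispersed. A run of 13 on 3R (26619118 to 26693590, 74.5 kb) held TwdlM as its 1 gene that passed, TwdlS with a few counts, and 11 genes without counts, and Tb, a family gene inside that run whose symbol the rule does not reach, had 0 counts. TwdlX, TwdlY, TwdlZ and Twdlalpha form a run of 13.3 kb on the X chromosome, and TwdlF, TwdlG and TwdlV one of 8.8 kb on 3R. None of these 7 genes passed. TwdlT lies 52777 bases from the nearest member, TwdlC, which had no counts, and TwdlE, Twdlbeta and TwdlW lie alone.

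The 17 members with counts that did not pass had between 1 and 25 counts over all libraries, with a median of 8 and at most 8 in 1 library. Some were seen mainly in the NAT10 knockdown. Osi3 had 0, 8 and 0 counts in control, NAT10 knockdown and double knockdown discs, so no ratio to control is given. Its 3 NAT10 knockdown libraries held 3, 4 and 1 counts. Their mean of 0.154 CPM lay under the floor of 0.167 to 0.177 CPM of these libraries. Osi17 had 0, 9 and 1 counts, and its NAT10 knockdown libraries held 0, 4 and 5, so that 1 of them overlapped control. Osi21 had 2, 9 and 3, with a ratio to control of 4.21 and an interval of 0.872 to 40.1 that covers counting error alone. TwdlX had 3, 6 and 16 counts. All 3 of its control counts lay in 1 library (0, 3 and 0), the double knockdown libraries held 3, 8 and 5, and these genotypes overlapped. The others had at most 8 counts in any genotype. Osi6 had 1, 4 and 3 counts, Osi13 had 2 in the NAT10 knockdown, Osi8 had 2 in the double knockdown, and Osi18 and Osi23 had 1 each in control. TwdlS had 2, 7 and 6 counts, TwdlY 4, 7 and 7, TwdlZ 8, 6 and 3, Twdlalpha 8, 2 and 8, TwdlG 1, 1 and 4, TwdlW 1, 2 and 1, TwdlF 0, 2 and 3, and TwdlV 2 in the double knockdown. Twdlalpha shares 5.3% of its exon bases with CG32568 and Osi21 0.7% with mre11. The Osiris genes without counts were Osi1, Osi4, Osi5, Osi7, Osi10a, Osi10b, Osi11, Osi12, Osi16, Osi19, Osi20 and Osi22. The Tweedle genes without counts were TwdlB, TwdlC, TwdlD, TwdlH, TwdlJ, TwdlK, TwdlL, TwdlN, TwdlO, TwdlP, TwdlQ and TwdlR. A gene with 0 counts in a library was below about 0.150 to 0.213 normalised CPM there, and lower levels were not detectable at this depth.

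Transcription factors of the ecdysone cascade and of cuticle timing, with some other temporal and epidermal factors, were set beside the families first. For short, this mixed list is named timing factors below. Of 15 listed, 14 were tested, and in the NAT10 knockdown 3 were higher and 9 lower against control, where 62.1% of all genes were called. Their median log2 change was -0.65, against 0.03 over all genes tested. The receptor partner usp (-0.05 ± 0.043, adjusted p = 0.345) was not called, and Eip93F did not pass the filter. Blimp-1, a repressor that acts as a timer after ecdysone, stood at 168.4 ± 10.1, 0.400 ± 0.052 and 102.7 ± 3.96 CPM in control, the NAT10 knockdown and the double knockdown. The nuclear receptors Hr4, Hr3 and Eip78C fell by 7.06 ± 0.126, 6.99 ± 0.157 and 5.84 ± 0.089 on the log2 scale in NAT10 knockdown discs (edgeR adjusted p = 8.22e-16, 1.1e-17 and 6.65e-27). Hr3 is uncertain, because 82.7% of its exon bases are shared with other annotated genes. The ecdysone-induced receptor gene Eip75B, the early response factor br, the nuclear receptor gene Hr39 and the epidermal factors grh and ovo fell by 1.05, 1.15, 0.78, 0.53 and 0.15 (adjusted p = 8.17e-07, 3.12e-23, 7.28e-17, 3.73e-15 and 0.000166). The 3 factors that rose there were chinmo, ftz-f1 and EcR. In the order control, NAT10 knockdown and double knockdown, the temporal factor chinmo stood at 12.7 ± 0.962, 305.3 ± 1.40 and 51.3 ± 0.569 CPM, the nuclear receptor ftz-f1 at 16.6 ± 0.505, 107.7 ± 0.850 and 39.6 ± 1.34, and the ecdysone receptor EcR at 175.6 ± 6.27, 318.4 ± 7.06 and 250.7 ± 6.40 (adjusted p = 1.05e-30, 1.1e-24 and 1.04e-18 in the NAT10 knockdown). For ftz-f1, 29.4% of exon bases are shared with a long non-coding RNA gene. In the double knockdown against control 4 factors were higher and 7 lower with a median of -0.05, where 31.3% of all genes were called. The ecdysone early gene Eip74EF, not called in the NAT10 knockdown (0.07 ± 0.039, adjusted p = 0.12), was among those higher (0.26 ± 0.039, adjusted p = 6.79e-06). Between the knockdowns 10 factors were higher and 3 lower in the double knockdown, where 56.7% of all genes were called.

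Other genes of the apical matrix and cuticle were set beside the families. Of 20 listed genes for chitin synthesis, binding and remodelling, 18 were tested. Of these, 13 were higher and 2 lower in the NAT10 knockdown, and 7 higher and 2 lower in the double knockdown, with median log2 changes of 0.28 and 0.07. Of all genes tested, 62.1% and 31.3% were called in these comparisons with control. The chitin-binding protein gene obst-E went from 0.238 ± 0.166 CPM in control to 4.27 ± 0.098 in NAT10 knockdown discs and 0.447 ± 0.050 in the double knockdown (log2 4.21 ± 0.339 in the NAT10 knockdown, adjusted p = 3.54e-11). It passed the filter through its NAT10 knockdown libraries alone, so it had to differ from both other genotypes. Its adjusted p is therefore a description only. In the NAT10 knockdown the chitin deacetylase gene Cda5 rose by 1.94 ± 0.076 (adjusted p = 4.83e-16), the chitinase gene Cht10 fell by 1.60 ± 0.028 (adjusted p = 9.18e-26), and nst, which acts in the synthesis of the chitin precursor, fell by 0.12 ± 0.049 (adjusted p = 0.043).

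Zona pellucida proteins, which anchor the epithelium to its apical matrix, moved mostly the other way. Of 10 listed, 7 were tested, with 2 higher and 5 lower in NAT10 knockdown discs and 1 higher and 5 lower in the double knockdown, at medians of -1.07 and -0.19. The shares called over all genes were 62.1% and 31.3%. The genes m and neo fell by 2.90 ± 0.188 and 1.91 ± 0.040 in the NAT10 knockdown (adjusted p = 4.02e-13 and 9.67e-24). The genes dpy and tyn rose by 0.84 ± 0.025 and 0.34 ± 0.041 (adjusted p = 1.84e-20 and 6.42e-08), and 17.9% of the exon bases of tyn are shared with other genes.

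Of 15 other structural cuticle genes, 8 were tested, with 5 higher and 1 lower in NAT10 knockdown discs and 6 higher and 1 lower in the double knockdown, at medians of 1.37 and 1.23. The shares called over all genes were 62.1% and 31.3%. Vajk3 stood at 17.4 ± 1.65, 136.4 ± 2.01 and 56.8 ± 0.303 CPM in the 3 genotypes, and the larval cuticle protein gene Lcp3 at 0.574 ± 0.058, 3.16 ± 0.197 and 3.97 ± 0.298 (log2 2.96 ± 0.053 and 2.46 ± 0.262 in the NAT10 knockdown, adjusted p = 2.37e-25 and 7.42e-09). Vajk4 stood at 4.52 ± 0.536, 0.057 ± 0.099 and 0.813 ± 0.105. Its NAT10 knockdown libraries held 3 counts in all, a mean under the floor. Vajk4 passed the filter through libraries of the other genotypes alone, so it had to differ from the NAT10 knockdown. The edgeR adjusted p of its drop there (7.46e-12) is therefore a description only.

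All 8 genes listed for the lipid barrier and secretion were tested, with 2 higher and 6 lower in NAT10 knockdown discs and 2 higher and 4 lower in the double knockdown, at medians of -0.33 and -0.10. The shares called over all genes were 62.1% and 31.3%. CrebA, a transcription factor that drives secretory capacity, and the vesicle coat gene Sec24CD fell by 1.52 ± 0.040 and 0.66 ± 0.028 in the NAT10 knockdown (adjusted p = 1.07e-21 and 5.44e-17). The lipid transporter gene snu and the cuticle barrier gene snsl rose by 0.59 ± 0.043 and 1.81 ± 0.504 (adjusted p = 3.57e-12 and 0.00301). In the order control, NAT10 knockdown and double knockdown, snsl stood at 0.214 ± 0.124, 0.802 ± 0.156 and 0.551 ± 0.051 CPM. It passed the filter through knockdown libraries alone, so it had to differ from control. Between the knockdowns, the genes called higher and lower in the double knockdown numbered 2 and 13 for chitin, 5 and 2 for the zona pellucida proteins, 3 and 2 for the other cuticle genes and 6 and 1 for the lipid and secretion genes. Of all genes tested, 56.7% were called between the knockdowns, 28.4% as higher and 28.3% as lower. The lists were written with results of these data known, and no list was tested as a set.

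**Figure D4:**
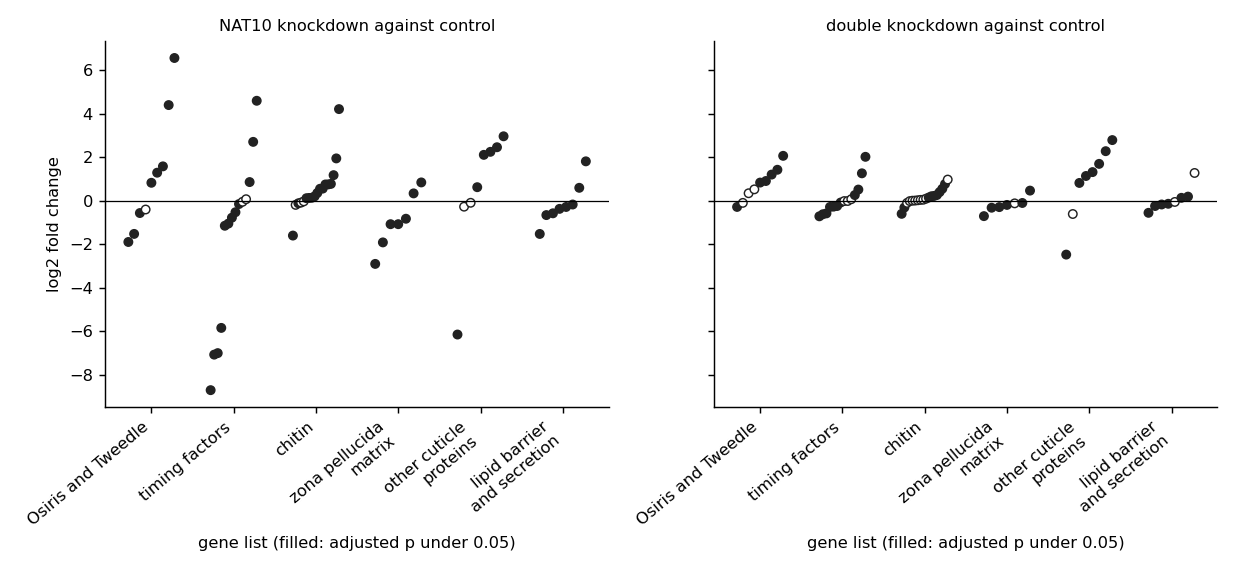
Log2 fold changes against control of the tested Osiris and Tweedle members and of the tested genes in 5 other lists, each point a gene and filled at an adjusted p under 0.05. In the NAT10 knockdown (left) the Osiris and Tweedle members run from -1.89 to 6.55 and the timing factors from -8.69 to 4.59, and in the double knockdown (right) these runs are narrower.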

How the data were processed

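The authors deposited estimated counts and FPKM per gene and library. Per the submitters' processing notes, the tools were RSEM (no version), StringTie 1.3.1, HISAT2 2.1.0 and fastp 0.18.0. Sources used here do not give the genome build, and positions came from BDGP6.54, release 115, which matched 50 of 50 members. Of the deposited estimated counts, 8.19% to 9.11% per library were not whole and were rounded, ties to the even number. Among members, only TwdlE had such values. The fit used edgeR 4.0.16 (R 4.3.3) with TMM, filterByExpr (about 0.557 CPM in 3 libraries) and a robust quasi-likelihood test over all 9 libraries, first tested on simulated data. SE is the log2 change divided by the root of F. FPKM as deposited by the authors served only to order genes per length. The authors' comparison tables were not used here.

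Groups followed the genotype labels. The members and lists were chosen with earlier results of these data known. Named were all members, the targeted genes, genes inside the runs, called timing factors, and from each list the called genes with the 2 highest and 2 lowest changes in the NAT10 knockdown. Alternatives were DESeq2 1.42.0, other size factors, total counts, other filters, fits of 2 genotypes, a replicate block, an adjusted p under 0.01, leaving out each library, and, added after seeing the data, ties rounded up. TwdlU was not analysed here. No promoter or protein sequences were used here.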

Additional observations from a re-analysis of the deposited data

How the results depend on the processing

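Of the fold changes of members recomputed under the alternatives, 418 kept their direction and call, 24 lost the call and 3 changed sign, all 3 among changes that had not been called. Osi24 in the double knockdown against control ranged from -0.25 to 0.10 when 1 library was left out, positive without the first control library. Between the knockdowns, Osi2 ranged from -0.088 to 0.11, negative without the second double knockdown library, and TwdlM from -0.029 to 0.34, negative without the first NAT10 knockdown library. The 24 lost calls concerned Osi9, Osi15, TwdlE and TwdlM. In fits of only the compared genotypes, 8 members could be tested in each comparison with control. TwdlM was not testable in the NAT10 knockdown, nor Osi15 in the double knockdown, because too few libraries were over the filter minimum. These fits called 7 and 5 members, beside 5195 of 8186 and 2486 of 8302 genes. A filter of at least 5 CPM in 3 libraries left 5 members to test. In the NAT10 knockdown against control 5 were called in place of 8, beside 4727 of 7191 genes. With no filter, 26 members were tested, and 10, 6 and 6 were called in the 3 comparisons, beside 5426, 2974 and 5098 of 11885 genes. Osi3 and Osi17 joined in the NAT10 knockdown against control (adjusted p = 0.0363 and 0.0246), and between the knockdowns Osi3 joined (adjusted p = 0.0261) and Osi9 was lost. With at least 1 count in any library as the measure of detection, 20, 22 and 22 members were detected in control, the NAT10 knockdown and the double knockdown, and 26 in any genotype. Leaving out 1 library gave 7 to 8, 4 to 6 and 5 called members in the 3 comparisons, and 4910 to 5340, 2284 to 2661 and 4460 to 5025 called genes in all. Deviations from the genotype mean correlated at -0.028 to 0.077 between same-numbered libraries and at -0.117 to 0.136 between differently numbered ones. A pairing with little effect on expression would give the same values, so this check cannot decide whether the samples were paired. With the replicate number as a block, 8, 6 and 5 members were called, beside 5282, 2675 and 4839 of 8487 genes. The one call that changed was that of Osi9 between the knockdowns (adjusted p = 0.067). Rounding ties up gave 8, 6 and 6 members, beside 5269, 2654 and 4806 of 8481 genes. With total counts only, the split of all genes called in the double knockdown against control was 1613 higher and 1044 lower, against 1335 and 1318, and no other scaling moved a split by over 10 percentage points. No scaling changed the direction or call of a member. Members near the floor of 3 counts are limited by depth.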
